A study of Rattus norvegicus with 10 samples.

Results

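Tubulins are the proteins of microtubules, and 7 of their genes (Tubb2a, Tubb2b, Tubb5, Tubb6, Tuba1a, Tuba1b and Tuba4a) were described in rat liver after a noodle diet with and without seasonings. They were chosen by family around Tubb2a, which was itself selected on its signal difference between these diets, so the difference between the diets is given for them as a description with no test. Every probe set that the platform's gene table assigns to 1 of these genes alone was taken, which gave 7 probe sets for 5 genes, of 31042 probe sets in all. Tuba1a and Tuba1b had no probe set of their own.

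The series holds 10 livers of male rats aged 13 weeks, 1 array for each liver. The N-group (5 livers, animals 1, 4, 7, 10 and 13) received for 30 days a diet with 30 wt% instant noodle, seasonings included, and 26% of its energy as fat. The C-group (5 livers, animals 2, 5, 8, 11 and 14) received that same diet with the seasonings left out. Feeding was paired, at 60 g of diet per kg of body weight daily, with free access to water, under 12 h of light and 12 h of dark.

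Microtubules are hollow polymers of alpha- and beta-tubulin dimers. In hepatocytes they carry secretory vesicles, lipoproteins and bile canalicular proteins, and they give tracks to kinesin and dynein motors. Several genes encode each kind of tubulin, and their proteins differ mainly in a short acidic tail. Cells also hold tubulin mRNA in check by a feedback in which free dimers lead to the decay of tubulin mRNAs that are being translated.

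The stretch before the start site is shown for Tubb2a, for its close relative Tubb2b, whose deposited values did not move, and for Tuba4a, the other gene of the set whose values did. These are 250 bases from RefSeq (rat assembly GRCr8), written 5′ to 3′ on the gene's strand, at chr17:31001936-31002185 (plus strand) for Tubb2a, chr17:30952836-30953085 (plus strand) for Tubb2b and chr9:84162585-84162834 (minus strand) for Tuba4a. Capitals mark 2 motifs, the cyclic AMP response element TGACGTCA and the TATA motif TATAAA.
Tubb2a: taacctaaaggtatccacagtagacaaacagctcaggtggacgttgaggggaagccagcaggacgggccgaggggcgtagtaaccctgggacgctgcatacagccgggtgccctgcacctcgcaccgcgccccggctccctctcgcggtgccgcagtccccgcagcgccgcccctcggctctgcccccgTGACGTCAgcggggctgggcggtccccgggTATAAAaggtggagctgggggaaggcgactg
Tubb2b: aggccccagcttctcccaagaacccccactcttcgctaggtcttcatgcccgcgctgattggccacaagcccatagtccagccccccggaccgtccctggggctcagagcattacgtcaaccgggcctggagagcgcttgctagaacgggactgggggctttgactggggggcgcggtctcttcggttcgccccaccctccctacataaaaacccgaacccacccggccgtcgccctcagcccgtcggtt
Tuba4a: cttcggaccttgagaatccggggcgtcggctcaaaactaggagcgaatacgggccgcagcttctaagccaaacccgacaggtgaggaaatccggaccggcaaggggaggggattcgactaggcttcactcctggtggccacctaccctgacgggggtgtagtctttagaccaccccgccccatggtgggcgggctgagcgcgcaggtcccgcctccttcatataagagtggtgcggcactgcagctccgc

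Of the 7 genes, all of which had a promoter entry, 1 held TGACGTCA and 1 held TATAAA on either strand, and in both cases it was Tubb2a. The first motif lay 61 to 54 bases and the second 31 to 26 bases before the start. Among 33469 rat promoters of the same length, TGACGTCA stood in 1.59% and TATAAA in 12.9%. The motif CCAAT, found in 34.0% of promoters, stood in 5 of the 7 (all but Tubb2a and Tuba4a), and the E-box CACGTG, found in 5.59%, stood in Tubb5 alone. No overlap between these motifs occurred in Tubb2a. Only exact matches were counted, which leaves out near matches such as TATAAG in Tuba4a and TTACGTCA in Tubb2b. The matches describe the letters in this window only.

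The deposited values are log2 signals, 1 per probe set and array. They fell into 2 classes, since 87.0% of all probe sets had an SD over the 10 livers of 0.01 or less (near-constant) and 4050 had a larger one (varying). A near-constant value shows what was deposited, and whether the RNA itself was as even was not tested. Of the 7 tubulin probe sets, 2 varied (Tubb2a and Tuba4a) and 5 were near-constant. Array medians lay between 6.47 and 6.48, and 8.07 to 8.30 over varying probe sets. By the letter of the array codes in the labels, all N-group livers stood in one row and all C-group livers in another, so row and diet cannot be told apart.

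**Figure D1:**
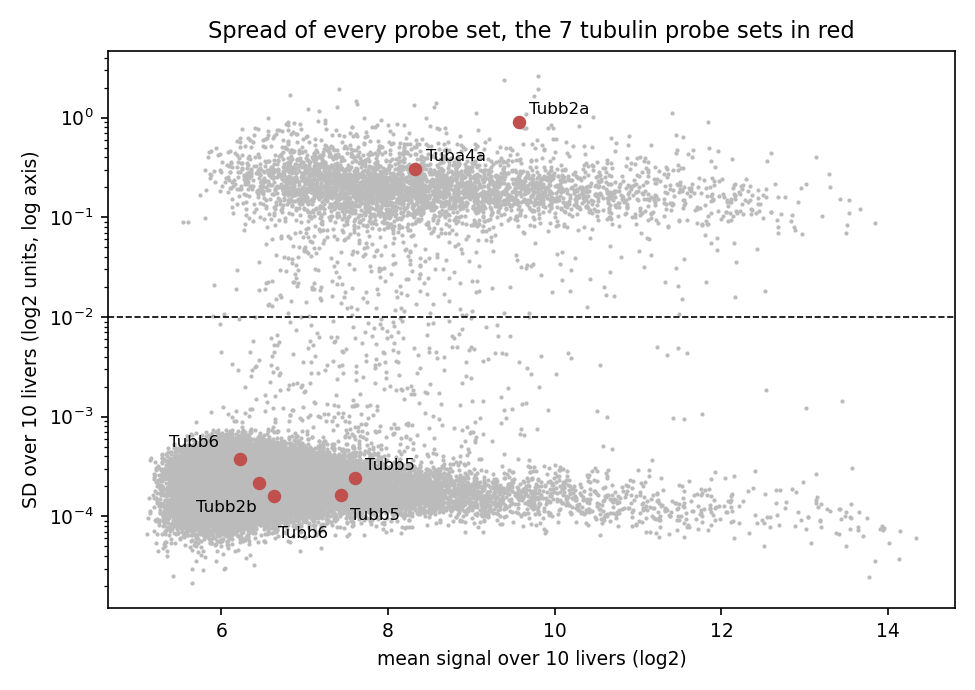
Mean signal over the 10 livers (log2, x axis) against the SD over the 10 livers (log2 units, log y axis) for all 31042 probe sets in grey, with the 7 tubulin probe sets in red. The dashed line is the SD of 0.01 that parts varying from near-constant probe sets, with Tubb2a and Tuba4a above it and both probe sets of Tubb5, both of Tubb6 and that of Tubb2b below it.

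Tubb2a, a beta-tubulin, had the larger difference of the 2 varying genes of the set. Its signals were 10.36, 10.38, 10.57, 10.21 and 10.17 in N-group animals 1, 4, 7, 10 and 13, against 8.78, 8.68, 8.04, 9.48 and 8.98 in C-group animals 2, 5, 8, 11 and 14. All N-group livers lay above all C-group livers, with a gap of 0.70 between the lowest N-group liver (animal 13) and the highest C-group liver (animal 11). The mean was 10.34 ± 0.16 in the N-group and 8.79 ± 0.52 in the C-group (SD, n = 5 each), a difference of 1.55 ± 0.24 log2 units (SE), or 2.92-fold. The C-group livers spanned 8.04 (animal 8) to 9.48 (animal 11), a wider range than the 10.17 to 10.57 of the N-group. In whole liver, a change in the number of cells of a type cannot be told apart from a change in RNA per cell.

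The animals' numbers run with the array positions inside each row. The Tubb2a difference was 1.71 over animals 1 to 7 (3 N-group, 2 C-group) and 1.36 over animals 8 to 14 (2 N-group, 3 C-group). It differed by 1.72 ± 0.19 without C-group animal 11 and by 1.36 ± 0.17 without C-group animal 8.

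Tuba4a, an alpha-tubulin whose gene encodes no tyrosine at the tail's end, was the other varying gene of the set. Its signals were 8.59, 8.37, 8.52, 8.61 and 8.71 in N-group animals 1, 4, 7, 10 and 13, against 8.02, 8.34, 7.81, 7.97 and 8.34 in C-group animals 2, 5, 8, 11 and 14. The groups did not overlap, but the gap between N-group animal 4 and C-group animal 14 was only 0.026 log2 units. The mean was 8.56 ± 0.13 in the N-group and 8.10 ± 0.23 in the C-group (SD, n = 5 each), which is a difference of 0.46 ± 0.12 (SE), or 1.38-fold. It came to 0.32 over animals 1 to 7, to 0.62 over animals 8 to 14, and to 0.39 ± 0.11 without C-group animal 8, the lowest liver.

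**Figure D2:**
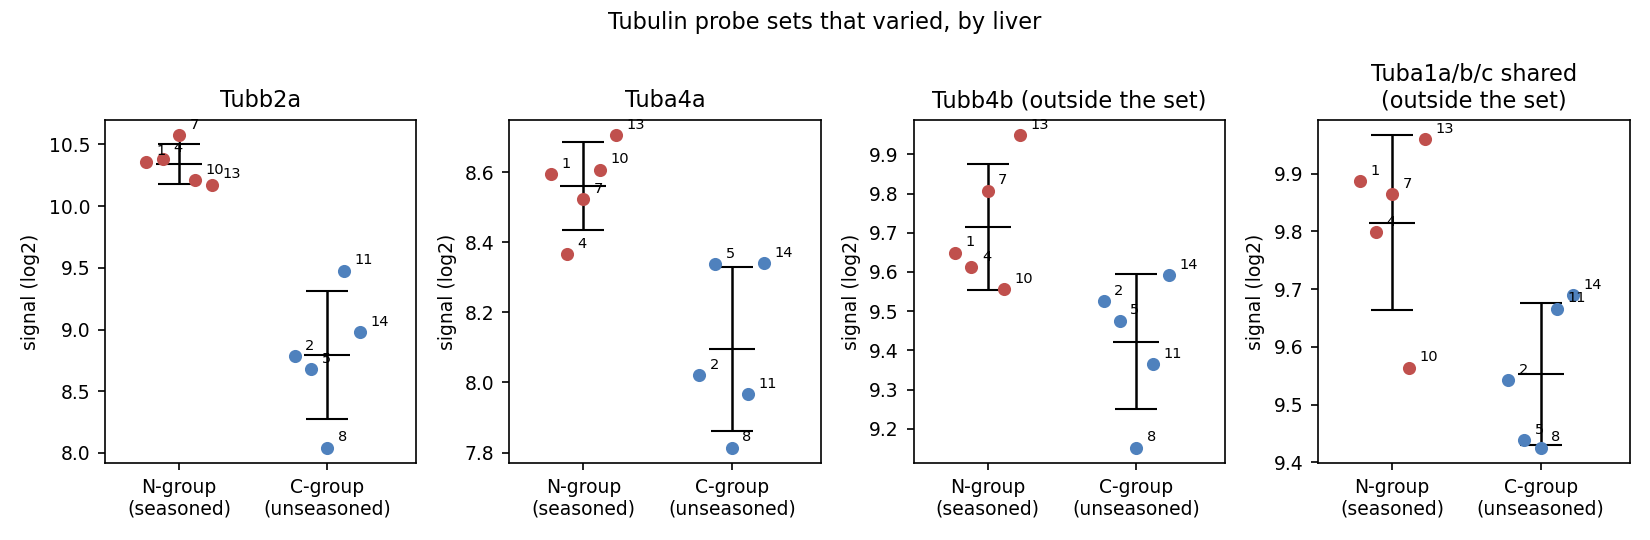
Signal (log2, y axes with separate scales that do not start at 0) of the 2 varying probe sets of the set and of 2 tubulin probe sets outside it, by diet on the x axis. Points are livers marked with their animal number, and bars are the mean ± SD of 5 livers. Tubb2a and Tuba4a part the diets without overlap, the other 2 do not, and C-group animal 8 is the lowest liver in all 4 panels.

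The remaining beta-tubulins of the set were flat in the deposited table. Tubb2b, which lies near Tubb2a on chromosome 17 and is best known from neurons, was at 6.45 in each of the 5 N-group and the 5 C-group livers, a difference of 3e-05 ± 0.00014 (SE). Tubb5, a beta-tubulin made in most tissues, was at 7.44 with 1 probe set and at 7.60 with the other in every liver. Tubb6, a beta-tubulin of many non-neuronal tissues, was at 6.63 and 6.22 likewise. Over these 5 probe sets the range across the 10 livers was 0.00045 to 0.0011 log2 units, and no difference between the diets exceeded 0.00019. The probe sets of Tubb2b and Tubb6 also lay near the array medians, and detection calls were not used here. A further gene on chromosome 17, Tubb2al1, is named in GRCr8 but not in the platform's table, and whether the Tubb2a probe set also reads it or Tubb2b was not tested.

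Over all 31042 probe sets limma called 0 at an adjusted p under 0.05 (0% of all), so 0 of the 7 tubulin probe sets, with 1390 probe sets at an unadjusted p under 0.05. Among varying probe sets alone it called 13 (0.321%), a count that ran from 0 to 84 with 1 liver left out. The 0 of the 7 refers to the fit over all probe sets on the deposited values, and tubulins among the 13 were not listed. In the fit of varying probe sets the differences were 1.55 ± 0.22 (SE) for Tubb2a and 0.46 ± 0.11 for Tuba4a. The diets did not overlap, with the N-group higher, in 2 of the 7 tubulin probe sets, against 0.47% of all probe sets and 1.73% of the varying ones. Since Tubb2a was chosen for this contrast, nothing is read from these counts.

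Tuba1a, an alpha-tubulin prominent in neurons, and Tuba1b, the alpha-tubulin of most cells, could be read only through 1 probe set that they share with Tuba1c, which the rule leaves out. Its signals were 9.89, 9.80, 9.86, 9.56 and 9.96 in N-group animals 1, 4, 7, 10 and 13, against 9.54, 9.44, 9.43, 9.67 and 9.69 in C-group animals 2, 5, 8, 11 and 14. Of the N-group livers 4 lay above every C-group liver, while animal 10 lay among them. The mean was 9.81 ± 0.15 in the N-group and 9.55 ± 0.12 in the C-group (SD, n = 5 each), a difference of 0.26 ± 0.09 (SE) that did not pass in limma (adjusted p = 0.871). Which of the 3 genes carries this difference cannot be told apart on this probe set.

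Among tubulins outside the set, Tubb4b, a widely made beta-tubulin, had the largest difference of 0.29 ± 0.10 (SE). Its signals were 9.65, 9.61, 9.81, 9.56 and 9.95 in N-group animals 1, 4, 7, 10 and 13, against 9.52, 9.48, 9.15, 9.36 and 9.59 in C-group animals 2, 5, 8, 11 and 14. Only N-group animal 10 and C-group animal 14 overlapped, and the difference did not pass in limma over 14217 genes (adjusted p = 0.861). A second Tubb4b probe set, which the table shares with the complement gene C7, differed by 0.05 ± 0.09 (-0.0088 ± 0.0732 without C-group animal 2, so no direction is given), and a further shared one was near-constant. Tubg1, the gamma-tubulin that starts new microtubules, differed by 0.06 ± 0.06. Tubb4a, a beta-tubulin best known from brain, differed by -0.03 ± 0.10 with its 1 varying probe set, and by 0.04 ± 0.08 without C-group animal 11, so no direction is given. Of the 15 tubulin probe sets outside the set 5 varied, and the other 10, of Tuba8, Tubb1, Tubb3, Tubb4a, Tube1 and the pair Tubb4b and C7, had ranges of at most 0.0014 over the livers.

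**Figure D3:**
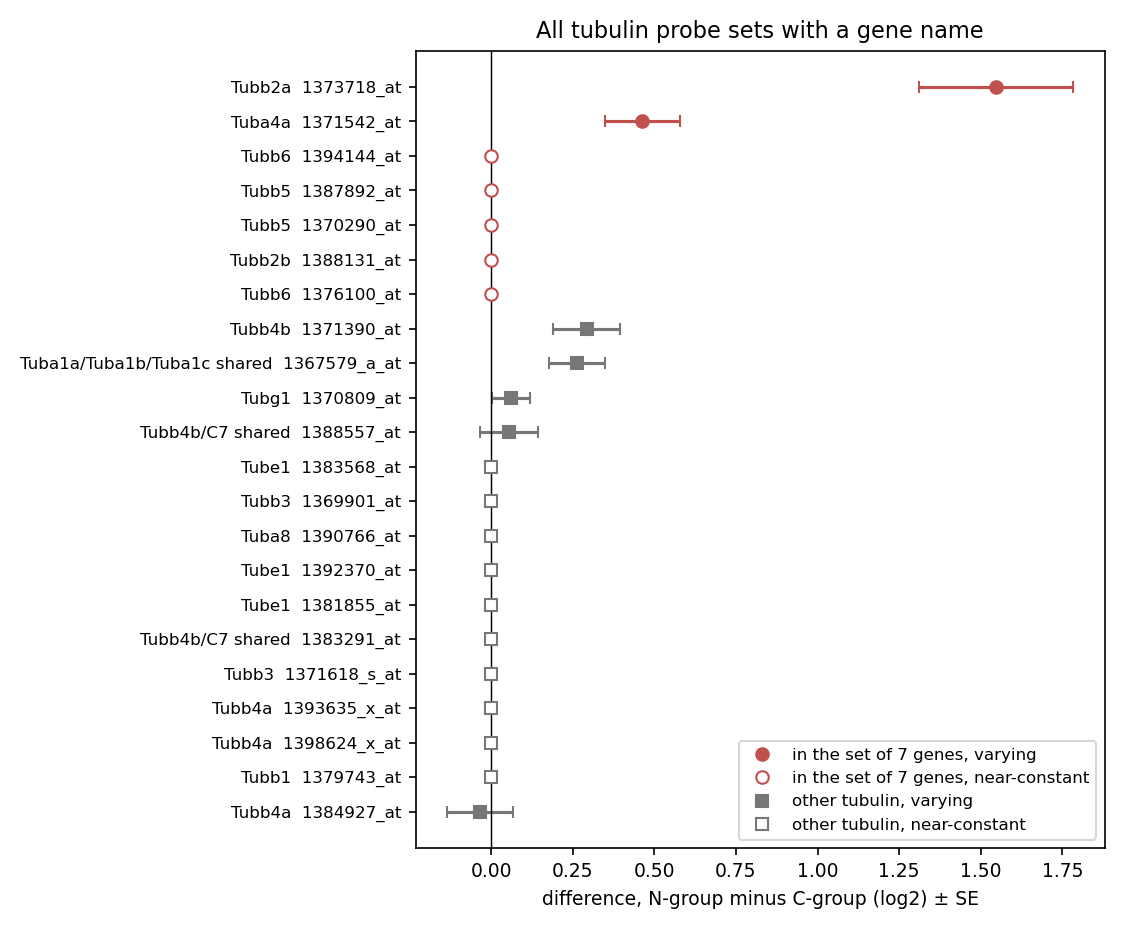
Difference between the diets (N-group minus C-group, log2, x axis) for the 22 tubulin probe sets, with bars for the SE from limma over all probe sets (5 livers per diet). Red circles are the set of 7 genes and grey squares are other tubulins, and open symbols are near-constant probe sets. Tubb2a lies at 1.55, Tuba4a, Tubb4b and the shared Tuba1 probe set between 0.26 and 0.46, and all near-constant probe sets at 0.

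Tubb2a and Tuba4a were then compared within the diets, which the choice of the genes did not use. After each diet's mean was removed, their signals over the 10 livers had a Pearson r of 0.165 (exact two-sided permutation within the diets, p = 0.772, adjusted p = 0.772 over 6 pairs) and a Spearman rho of -0.04 (exact permutation p = 0.928, adjusted p = 0.928). Without the 2 livers farthest from the median (C-group animals 8 and 11), r was -0.266 (exact permutation p = 0.522). With the means of the 4 combinations of diet and animal numbers (1 to 7, 8 to 14) removed instead, r came to 0.319 (exact permutation p = 0.806). By diet (5 livers each, not tested), r was -0.584 in the N-group and 0.291 in the C-group. The C-group weighs more in the pooled r, since the SD of Tubb2a was 0.52 there and 0.16 in the N-group. A shared rise and fall of Tubb2a and Tuba4a from liver to liver was therefore not established.

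The closest tubulin within the diets was the shared Tuba1 probe set, chosen for this after the values were seen, with r = 0.546 (exact permutation p = 0.0717, adjusted p = 0.430 over 6 pairs) and rho = 0.430 (exact permutation p = 0.242, adjusted p = 0.928). Without C-group animals 8 and 11, r was 0.433 (exact permutation p = 0.322), and with the means of the 4 combinations removed it was 0.511 (exact permutation p = 0.250). Tubb4b, Tubb4a, the Tubb4b and C7 probe set and Tubg1 had r of 0.362, 0.280, 0.216 and -0.413, with adjusted p from 0.740 to 0.772 by the same permutation and rho of 0.224, -0.079, 0.152 and -0.297 (adjusted p = 0.928 each). Without the same 2 livers these r were 0.118, -0.388, 0.043 and -0.0089, and with the 4 combinations' means removed they were 0.473, 0.633, 0.166 and -0.491 (exact permutation p from 0.368 to 0.785). None of the 6 relations passed.

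The genes most like Tubb2a within the diets were no tubulins. Ranked by Pearson r over the 10 livers with the diet means removed, among 2611 varying genes, the first 5 were Npas2 (0.883), S1pr1 (0.878), Poteml2 (0.861), Rprm (0.847) and St8sia1 (0.813). Npas2 is a partner of Bmal1 in the circadian clock, S1pr1 a receptor for sphingosine phosphate, Rprm a cell cycle inhibitor induced by p53, and St8sia1 a sialyltransferase of ganglioside synthesis. On that scale the shared Tuba1 probe set would stand at rank 84 and Tuba4a at rank 549. These r are the highest of a search and are given as a description with no p.

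Npas2 had signals of 8.22, 8.31, 8.35, 7.92 and 7.64 in N-group animals 1, 4, 7, 10 and 13, against 6.97, 6.95, 6.59, 7.83 and 6.996 in C-group animals 2, 5, 8, 11 and 14. In both Npas2 and Tubb2a, animal 7 was the highest and animal 13 the lowest N-group liver, and animal 11 was the highest and animal 8 the lowest C-group liver. The rank correlation was 0.964, and r was 0.764 without C-group animals 8 and 11. Npas2 differed between the diets by 1.02 ± 0.24 (SE), with an adjusted p of 0.559 by limma over all genes.

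Without the same 2 livers r was 0.959 for Rprm, 0.493 for Poteml2, 0.466 for S1pr1 and 0.304 for St8sia1, while the rank correlations over all 10 livers were 0.915 for Rprm, 0.915 for Poteml2, 0.697 for S1pr1 and 0.648 for St8sia1. Rprm had signals of 7.22, 7.37, 7.65, 6.72 and 6.93 in N-group animals 1, 4, 7, 10 and 13, against 6.02, 5.85, 5.55, 6.60 and 6.63 in C-group animals 2, 5, 8, 11 and 14. As in Tubb2a, animal 7 was the highest N-group liver and animal 8 the lowest C-group liver. The other extremes differed, with animal 10 the lowest N-group liver and animal 14 the highest C-group liver for Rprm, against animals 13 and 11 for Tubb2a. The diets did not overlap for Rprm, and its difference of 1.05 ± 0.26 had an adjusted p of 0.591 by limma.

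**Figure D4:**
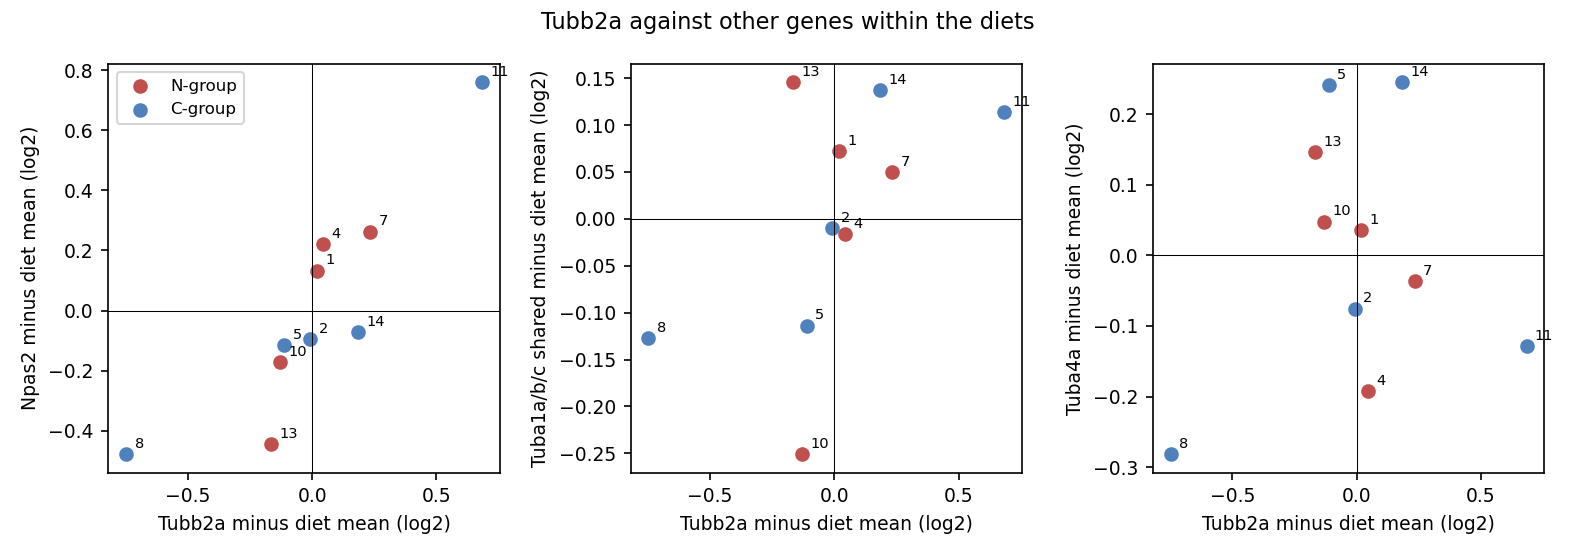
Signal minus the diet's mean (log2) of Tubb2a (x axes) against that of Npas2, of the probe set shared by Tuba1a, Tuba1b and Tuba1c, and of Tuba4a (y axes), with 1 point per liver marked with its animal number, red for the N-group and blue for the C-group. Npas2 follows Tubb2a (r = 0.883), the shared probe set less closely (0.546) and Tuba4a hardly (0.165).

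The genes that fold, modify and use tubulin were read from lists, at 1 probe set per gene, beside all 14217 genes. Over all genes limma called 0 (0%, 669 at an unadjusted p under 0.05), and of the 2613 varying genes 57.3% were higher in the N-group, with a median difference of 0.02. Of the tubulin folding list (prefoldin, chaperonin and tubulin cofactors) 20 of 21 genes were measured and 7 varied, 5 of them with a positive and 2 with a negative difference (median 0.05, 0 called). Pfdn6, a prefoldin subunit, differed by 0.36 ± 0.24, Cct5 by 0.11 ± 0.08 and Tcp1 by -0.14 ± 0.06 (SE). Cct5 and Tcp1 are subunits of the chaperonin that folds tubulin. The list of tubulin-modifying enzymes had 13 of 18 genes measured and 0 varying.

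For microtubule-binding and severing proteins 31 of 33 genes were measured and 1 varied, Tppp, a promoter of tubulin assembly, at -0.18 ± 0.12 (SE). The other 30 were near-constant in the deposited values, as were 11604 of all 14217 genes. Of the motors 27 of 30 genes were measured and 2 varied, both dynein light chains, Dynlt3 at 0.14 ± 0.07 and Dynll2 at -0.08 ± 0.11. Of the actin and intermediate filament list 25 of 29 genes were measured and 11 varied, 5 with positive and 6 with negative differences (median -0.02). Krt18, a keratin of hepatocytes, differed by 0.28 ± 0.10, Rdx, which ties actin to the membrane of bile canaliculi, by 0.28 ± 0.14, and Tpm4, a tropomyosin, by 0.02 ± 0.01. None of the genes in these lists passed over all genes, and none of their varying genes parted the diets without overlap. Of all 2613 varying genes, 42 did so with the N-group higher and 29 with it lower, so nothing is read from this absence. The other tubulins as a list had 7 of 13 genes measured and 3 varying, 2 with positive and 1 with a negative difference (median 0.06).

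**Figure D5:**
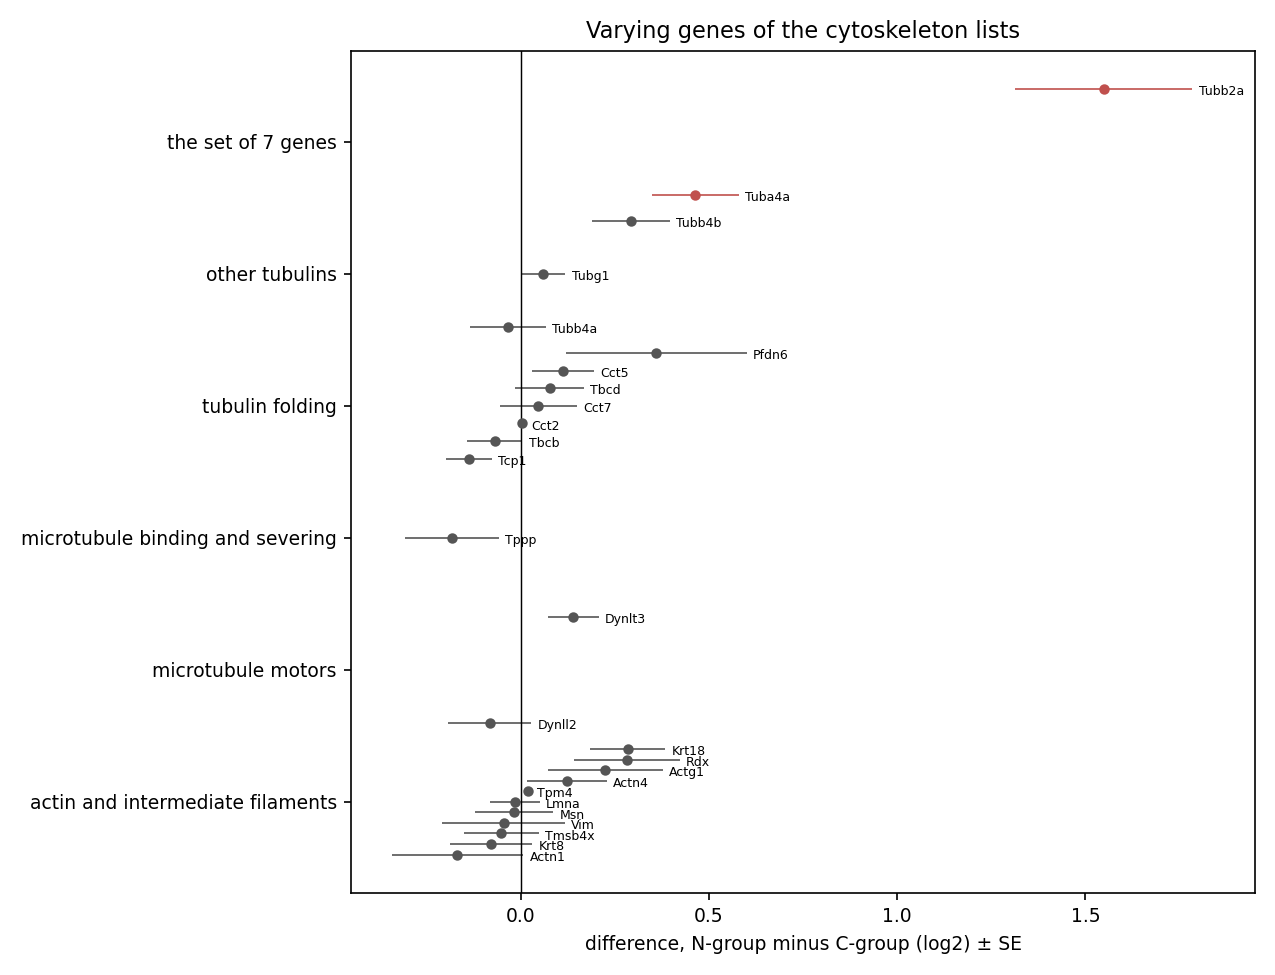
Difference between the diets (N-group minus C-group, log2, x axis) of the varying genes of the set and of 5 cytoskeleton lists, with SE bars from limma (5 livers per diet). Tubb2a stands at 1.55, while the genes of the 5 lists lie between -0.18 and 0.36.

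Markers of other cell types were read beside Tubb2a, since a liver sample holds many cell types. The hepatocyte list (9 of 10 measured) had a mean signal per liver of 13.10 to 13.16 in the N-group and 13.09 to 13.13 in the C-group, near the top of the table. The neuron and glia list (9 of 10 measured), read because the extraction text in the labels speaks of brain, was at 6.34 to 6.44 in the N-group and 6.34 to 6.39 in the C-group, with 1 gene varying (Mbp, 0.23 ± 0.20). The stellate cell and fibroblast list (10 of 10 measured) was at 7.26 to 7.41 in the N-group and 7.25 to 7.60 in the C-group. The macrophage and Kupffer cell list (7 of 8 measured) was at 8.11 to 8.73 in the N-group and 8.27 to 8.54 in the C-group, and the endothelial list (5 of 6 measured) at 8.11 to 8.18 in the N-group and 8.11 to 8.19 in the C-group. The cholangiocyte list (5 of 6 measured) was at 6.38 to 6.43 in the N-group and 6.33 to 6.45 in the C-group, and the proliferating cell list (9 of 10 measured) at 6.49 to 6.58 in the N-group and 6.49 to 6.55 in the C-group. The ranges overlapped in all 7 lists, and 0 marker genes passed in limma, as did 0 of all 14217 genes. Near-constant genes enter these means and hardly move, so the overlap does not show that cell numbers were even. In the stellate cell and fibroblast list 6 genes varied (1 higher, 5 lower in the N-group). In the macrophage and Kupffer cell list 6 varied (5 higher, 1 lower). The cholangiocyte, endothelial and proliferating cell lists had 1 varying gene each. Apoa1, a hepatocyte marker and lipoprotein component, was the 1 varying marker whose diets did not overlap, with a difference of 0.23 ± 0.07 (SE, adjusted p = 0.753 by limma). The 4 varying hepatocyte genes split into 2 higher and 2 lower in the N-group. Diets without overlap also occurred in 42 (N-group higher) and 29 (N-group lower) of all 2613 varying genes, so nothing is read from Apoa1 alone. The part of other cell types in the Tubb2a difference was not tested further.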

How the data were processed

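Each liver's total RNA (100 ng) was turned into biotin-labelled cRNA, per the labels' protocols. The deposited table holds log2 signals per probe set, whose summary and normalization, not given in the sources used here, are unknown. The log base was read from the values (4.79 to 14.34). The gene lists and the 7 genes were chosen with earlier results of these data known. Of 31099 probe sets, 57 controls were left out, and the platform's gene table (symbols updated through GRCr8) gave 1 gene to 20826 probe sets, several to 436 and none to 9780.

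The diets were compared by two-sided tests of limma 3.58.1 (lmFit, then eBayes; R 4.3.3) without covariates, adjusted by Benjamini-Hochberg over all probe sets. The gene lists used a second fit with the probe set of highest mean for each of 14217 genes. The number of arrays limits the precision. Titles number the animals separately, so p-values measure the spread between rats. Correlations over all 10 livers used exact permutation of livers within the diets (14400 orders). Those with the means of the 4 combinations removed used permutation within these combinations (144 orders), and fewer than 14400 orders exist with livers left out. The rule named every gene of the set, the 3 varying genes of smallest p in each list and the 5 genes most like Tubb2a. Of the 13 lists, the marker lists are given by level. The fits were tested on simulated data with 200 changed probe sets of the varying class. Over all 31042 probe sets 21% of changes of 0.5 log2 units, 77.5% of those of 1 and 96% of those of 2 were recovered, and over the 4050 varying ones 53%, 92.5% and 99%. Unchanged probe sets called numbered 1, 6 and 11 over all, and 8, 14 and 15 over the varying ones. The simulated noise was drawn separately for each probe set, without effects shared by an array, so these rates need not hold for the real arrays. Alternatives were other sets of probe sets, scalings, variance models, array weights, array position and animal number as terms, and leaving out each liver.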

Additional observations from a re-analysis of the deposited data

Results flagged for a closer look

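Of 78 groups of 5 livers tested (39 probe sets in both diets), 3 had an extreme liver that lay farther than 0.71 of the group's range from the next one, where chance gives about 1 in 20, or 3.9 here. None was of Tubb2a, Tuba4a or another tubulin. C-group animal 11 was high for Tpm4, at 8.12 against 8.09 in the next liver (ratio 0.7364), and for Col3a1, a collagen of stellate cells and fibroblasts, at 10.18 against 9.53 (ratio 0.7263). N-group animal 1 was high for Poteml2, at 8.38 against 7.92 (ratio 0.7214).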

How the results depend on the processing

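The Tubb2a difference lay between 1.52 and 1.73 and the Tuba4a difference between 0.43 and 0.47 under repeated quantile normalization, median centring, array weights, the animal-number block and the array position covariate, and between 1.36 and 1.72 and between 0.39 and 0.52 with any 1 liver left out. The correlation of Tubb2a with Tuba4a passed under none of its alternatives. It was 0.199 after repeated quantile normalization, and ran from -0.571 without C-group animal 8 to 0.521 without C-group animal 11. The count of probe sets called by limma was 0 over all probe sets. It was 13 among varying probe sets, 255 with median centring (which moves near-constant probe sets by a shared amount per array) and 0 to 10 with 1 liver left out, the 10 being without C-group animal 11. The other alternatives gave 0, with 654 to 2878 at an unadjusted p under 0.05. Among varying probe sets, 13 became 4 with 1 probe set per gene, 22 with the animal-number block, and 0 to 84 with 1 liver left out, choices made after seeing the data. The 84 came without C-group animal 11, and 0 without N-group animals 1, 4 or 7 or C-group animal 14. The labels do not say which animals were fed as pairs, and the diets share no animal number. With adjacent numbers assumed to be pairs (1 and 2, 4 and 5, 7 and 8, 10 and 11, 13 and 14), a choice made after seeing the data, the differences were 1.55 ± 0.28 for Tubb2a and 0.46 ± 0.12 for Tuba4a (SE), with 0 calls over all probe sets and 3 among varying ones. Depth does not apply to arrays, and signal over background was not analysed here.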
